A study of Mus musculus with 6 samples.

Results

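Axon guidance genes encode the secreted and membrane-bound cues that steer growing axons and migrating cells, and the receptors that read them. The 70 genes described here were taken from the deposited table by their symbols: semaphorins of classes 3 to 7, plexins, the neuropilins Nrp1 and Nrp2, Eph receptors, ephrins, Slits, Robos, netrins, Dcc and the Unc5 receptors. The table has 27102 rows, of which 20323 had a value in all 6 libraries. All 70 rows that matched the symbols were among these, so the filter of the table removed none. They comprise 20 semaphorins, 10 plexin entries, 2 neuropilins, 14 Eph receptors, 8 ephrins, 3 Slits, 4 Robos, 4 netrins and 5 genes of the Dcc and Unc5 group. One of the plexin entries, Plxna4os1, is an antisense RNA at the Plxna4 locus. Because no strand setting is given in the sources used here, its reads cannot be told apart from those of Plxna4.

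Semaphorins act through plexins, and the secreted class 3 proteins need neuropilins as the binding part of the receptor. Slits bind Robo receptors, netrins bind Dcc and Unc5 receptors, and ephrins on one cell bind Eph receptor tyrosine kinases on the next. In the hippocampus these systems guide axons and shape synapses during development. In the adult brain they are also used by oligodendrocyte lineage cells, migrating neuroblasts and blood vessels.

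Cells carrying GFP were collected from the mouse hippocampus by magnetic sorting and their RNA was sequenced. Each library was taken as 1 animal. All animals had the genotype Nestin-CreERT2;Rosa26-mGFP, in which the Nestin promoter drives an inducible Cre and recombined cells and their progeny carry a membrane GFP, and all ate cuprizone, which damages oligodendrocytes and strips myelin, for 10 weeks and then recovered for 4 weeks. The 3 animals of the vehicle group were given 0.1% bovine serum albumin in saline. The 3 other animals were given neuregulin 1 beta 1 (Nrg-1β1), a ligand of ErbB receptors, at 60 µg per kg per day according to the series description, while the sample labels write the same dose in grams. Ages are not stated. The design asks which transcripts of these cells differ with Nrg-1β1 after prolonged demyelination.

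Depth differed widely. The vehicle libraries held 72953034, 1075813 and 47076006 reads, and the Nrg-1β1 libraries 567073, 662909 and 1327003. Vehicle library 2 is therefore the only vehicle library as shallow as the Nrg-1β1 libraries. Of the 70 guidance genes, 70, 35 and 70 had at least 10 reads in vehicle libraries 1 to 3, against 24, 19 and 33 in Nrg-1β1 libraries 1 to 3. At least 10 reads in every library were found for 15 of them, 15 had 0 reads in at least 1 library, and 22 had fewer than 10 reads over the 3 Nrg-1β1 libraries. Xist, which female cells express, was read 3255, 216 and 1045 times in vehicle and 2, 3 and 1 times in Nrg-1β1, and the Y-linked Ddx3y had 82, 1 and 1994 against 29, 22 and 15, so all 3 vehicle libraries held reads of both transcripts, 1 of Ddx3y in vehicle library 2. On the log2 scale Xist was at 7.65, 9.39 and 6.07 in vehicle and 3.84, 4.27 and 2.82 in Nrg-1β1, and it fell by 4.06 ± 0.61 (SE, limma adjusted p = 0.00356). Ddx3y was at 3.16, 2.83 and 6.96 against 7.26, 6.86 and 5.63, with overlap. In vehicle library 3 Ddx3y lay within the Nrg-1β1 range, while Xist lay above its Nrg-1β1 range. Both at such levels would not be expected of 1 animal, and the number of animals behind each library was not tested. Xist thus differed with the group, and in these libraries its signal and the treatment cannot be told apart. For the genes most affected, differences are also given with vehicle library 2 or 3 as the only vehicle library.

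The cells are labelled as neural progenitors. Among 12 progenitor and neuroblast markers Sox2 and Hopx were read in every library, while Eomes, Neurod1 and Mki67 each had 0 reads in at least 1 Nrg-1β1 library and at most 2 in any. Markers of other cell types were present as well. The summed level of 16 endothelial markers was 1003 to 4675 normalized counts in vehicle and 260 to 331 in Nrg-1β1, with 10 of 16 lower past the threshold and Ly6a, Cldn5 and Flt1 among them. The sum of 11 microglial markers was 6635 to 10175 against 2542 to 3145 (7 of 11 lower), and that of 8 choroid plexus markers 1550 to 4939 against 138 to 204 (4 of 8 lower, Kcne2 at 0 in all Nrg-1β1 libraries). For 10 mural cell markers it was 256 to 506 against 76.6 to 143 (1 of 10 lower, Kcnj8 and Des at 0 in all Nrg-1β1 libraries), and for 7 fibroblast markers 225 to 602 against 66.8 to 158 (0 of 7). The sums of 10 oligodendrocyte markers (94731 to 191692 against 108744 to 141230), 9 astrocyte markers (23020 to 34433 against 38640 to 43413), 9 neuron markers (12213 to 21890 against 15843 to 25125) and 8 oligodendrocyte progenitor markers (1032 to 2062 against 1987 to 3420) had 1 marker past the threshold, C1ql1, which was higher.

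Levels of different genes were compared as normalized counts per kilobase of annotated exon. Counted this way, the ephrin Efnb3, a transmembrane ligand of EphB receptors, had the highest level of all guidance genes. It reached 106, 165 and 101 per kb in vehicle libraries 1 to 3 and 112, 117 and 109 in Nrg-1β1 libraries 1 to 3. Next in vehicle came the receptors Plxnb1, which binds Sema4d, and Plxnb2, which binds Sema4c and Sema4d, and the membrane-anchored ligand Sema7a. Plxnb1 stood at 61.7 ± 16.7 per kb (vehicle) and 82.8 ± 9.82 (Nrg-1β1), each the mean and SD of 3 libraries, Plxnb2 at 56.7 ± 15.1 and 27.8 ± 7.79, and Sema7a at 57.9 ± 29.6 and 19.3 ± 7.91. The vehicle levels of these 3 genes did not differ beyond their spread. In the Nrg-1β1 libraries the lowest Plxnb1 value, 71.9, lay above the highest Plxnb2 value, 35.4, and the means of Sema6b (44.6) and Unc5b (29.4) were above that of Plxnb2.

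**Figure D1:**
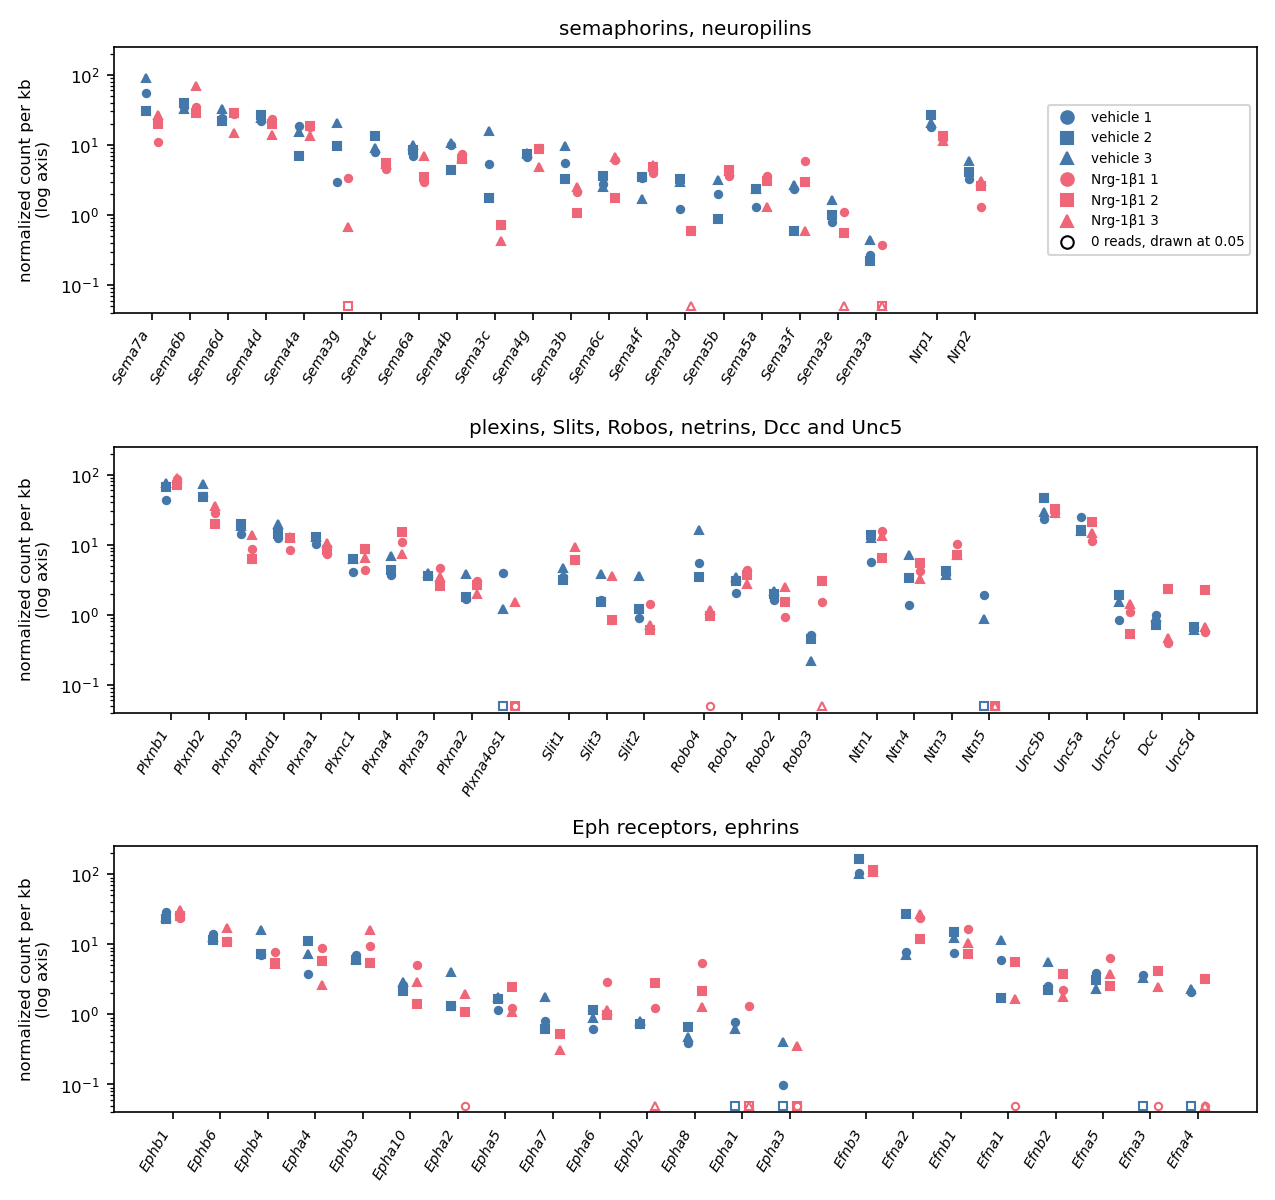
Level of each guidance gene in each library, as normalized counts per kilobase of annotated exon on a log axis, sorted within families by the vehicle mean. Blue symbols are vehicle and red symbols Nrg-1β1 libraries, the shape gives the library number, and open symbols mark 0 reads. Efnb3 lies at 101 to 165 in all 6 libraries, while the Robo4 values in Nrg-1β1 reach at most 1.15 against at least 3.49 in vehicle.

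Efnb3 accounted for most of the ephrin level, whose sum over 8 genes was 166 ± 41.9 per kb for vehicle and 158 ± 3.11 for Nrg-1β1. Among the Eph receptors Ephb1 led with 25.6 ± 2.83 and 26.8 ± 3.97, followed by Ephb6, an EphB protein without kinase activity, at 12.8 ± 1.39 and 12.9 ± 3.48. Unc5b (32.7 ± 11.8 and 29.4 ± 2.15) and Unc5a (18.9 ± 5.12 and 15.5 ± 4.91), which mediate repulsion by netrins, stood above Dcc (0.874 ± 0.15 and 1.06 ± 1.10), which mediates attraction. Ntn1, the prototype netrin, stood at 10.7 ± 4.31 and 11.7 ± 4.71. The Slits and Robos were low, with summed levels of 7.98 ± 3.54 and 9.77 ± 3.22 for 3 Slits and of 13.5 ± 7.38 and 7.46 ± 1.49 for 4 Robos. Among the semaphorins, Sema6b (35.5 ± 3.73 and 44.6 ± 22.6), Sema6d (26.3 ± 5.75 and 23.7 ± 7.82) and Sema4d (24.3 ± 2.32 and 19.1 ± 4.90), all transmembrane ligands, followed Sema7a in vehicle. In Nrg-1β1 the mean of Sema7a was below those of Sema6b and Sema6d and close to that of Sema4d. There the Sema6d values, from 14.7 to 28.5, overlapped those of both others, while the lowest Sema6b value, 28.3, lay above the highest of Sema4d, 23.5.

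No guidance gene passed the test between the groups. The test was limma over all 20323 genes at a Benjamini-Hochberg adjusted p of 0.05, where 1.06% of all genes were called, 127 lower (0.625%) and 89 higher (0.438%). With library medians centred, 4 of the 70 passed, beside 2.46% of all genes: Robo4, Sema3c and Sema3g lower (0.807% of all genes were called lower, 164) and Plxna4 higher (1.65%, 335). At an unadjusted p under 0.05 there were 13 of the 70 guidance genes, 18.6%, beside 13.0% of all genes, 10 lower (6.86% of all genes) and 3 higher (6.15%). With limma-voom on reads recovered from the table, 23 of them could be tested, 0 passed and 2 had an unadjusted p under 0.05, Plxnb2 and Nrp1, both lower (beside 15.0% of genes tested that way, 3.42% lower and 11.6% higher). The smallest adjusted p was 0.0512 (limma), for Robo4. Each difference subtracts the vehicle mean from the Nrg-1β1 mean of log2(normalized count + 4), a scale that makes changes of genes with few reads look too small. It was negative for 43 guidance genes and positive for 27 (61.4% negative, beside 47.8% of all genes), with a median of -0.10 beside 0.03 over all genes. The median standard error was 0.44, from 0.28 to 0.68, so that differences of that size could not be resolved.

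The groups did not overlap for 18 of the 70 genes, 25.7%, beside 17.7% of all genes. In 12 of these the Nrg-1β1 values were the lower ones (17.1%, beside 10.4% of all genes) and in 6 the higher ones (8.57%, beside 7.37%). The 12 were Sema3b, Sema3c, Sema3d, Sema4c, Sema6a, Sema7a, Plxnb2, Plxnb3, Nrp1, Nrp2, Epha7 and Robo4. The 6 were Sema4f, Sema5b, Plxna4, Epha8, Slit1 and Ntn3. In bulk RNA, fewer cells of a type and less RNA per cell cannot be told apart.

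**Figure D2:**
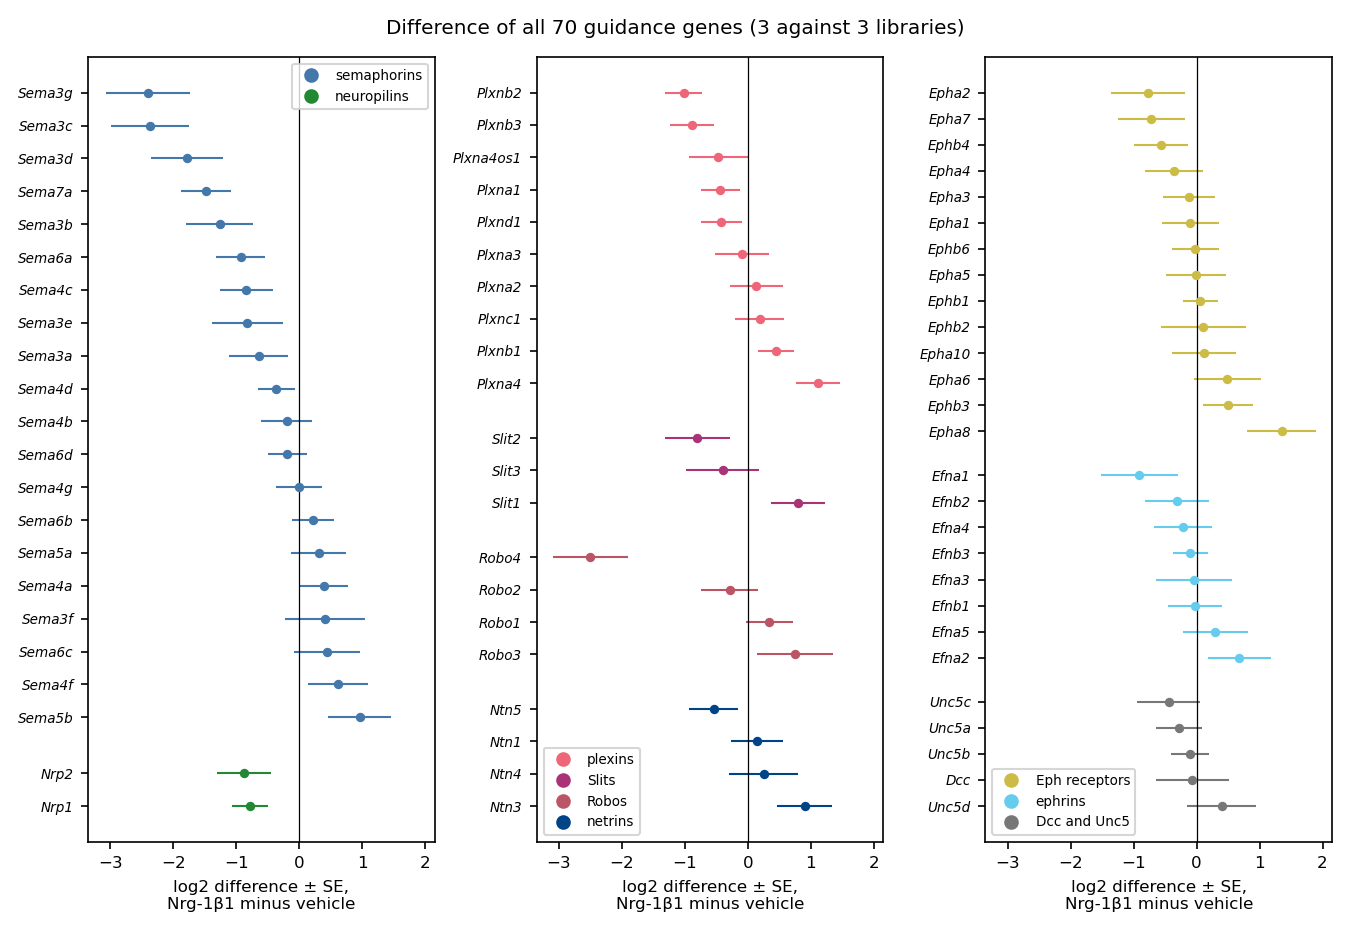
Difference of each of the 70 guidance genes between Nrg-1β1 and vehicle (negative: lower in Nrg-1β1), in log2(normalized count + 4), by family. Points are limma estimates and bars their standard error (3 against 3 libraries). The most negative values are those of Robo4, Sema3g and Sema3c, from -2.50 to -2.37, and the most positive is Epha8 at 1.35.

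The semaphorins held 6 of the 10 genes with a negative difference at an unadjusted p under 0.05, and 0 of 20 passed after adjustment. The 6 are 30% of the family, beside 6.86% of all genes. Among them Sema3b, Sema3c, Sema3d and Sema3g had only 7, 3, 2 and 4 reads over the Nrg-1β1 libraries. The median difference of the semaphorins was -0.28. In the 7 secreted class 3 genes it was -1.26, with 6 negative, and in the 13 genes of classes 4 to 7 it was 0.00, with 6 negative and 7 positive. The difference between these classes was not tested.

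Sema3c, a secreted cue that acts in vessel and heart development as well as on axons, had log2 values of 5.41, 4.03 and 6.88 in vehicle libraries 1 to 3 and 3.20, 3.19 and 2.82 in Nrg-1β1 libraries 1 to 3. The groups did not overlap, and the 3 Nrg-1β1 values were close together because each rests on 1 read. The difference was -2.37 ± 0.62 (SE, limma adjusted p = 0.0694). Pooled over each group, the vehicle level was 18.1 times the Nrg-1β1 level, with a 95% exact Clopper-Pearson interval of 6.19 to 87.9 that covers counting error only. Here and below, pooling weighs libraries by depth, so a pooled vehicle level is almost wholly that of vehicle libraries 1 and 3. Vehicle library 2 alone, with 4 reads, gave a ratio of 2.96 (0.5 to 20.2), so at this depth no difference was detectable from that library.

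Sema3g, which is known as an endothelial semaphorin, had log2 values of 4.12, 5.56 and 6.62 in vehicle and 4.29, 2.00 and 2.82 in Nrg-1β1. Here Nrg-1β1 library 1 lay above vehicle library 1, so the groups overlapped. The difference was -2.40 ± 0.67 (SE, limma adjusted p = 0.0885), and against vehicle library 2 alone it was -2.53. The pooled reads, 1791 in vehicle and 4 in Nrg-1β1, gave a ratio of 9.64 (3.76 to 35.4), and the 14 reads of vehicle library 2 one of 7.76 (2.44 to 32.4).

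Sema3d was at 3.86, 4.99 and 4.88 in vehicle and at 3.20, 3.19 and 2.00 in Nrg-1β1, where 2 reads were found in all. The groups did not overlap, and the difference was -1.78 ± 0.57 (SE, limma adjusted p = 0.143). Sema3b, a ligand with preference for Nrp2, differed by -1.26 ± 0.53 without passing, on 7 Nrg-1β1 reads. It was -0.60 with vehicle library 2 alone and -1.96 with vehicle library 3 alone. Sema3e, which binds Plxnd1 without a neuropilin, differed by -0.82 ± 0.57, Sema3a, the classic repellent of class 3, by -0.64 ± 0.47 and Sema3f by 0.41 ± 0.63, all with overlapping groups. Sema3a had 1 read in the 3 Nrg-1β1 libraries together, so its level there is not resolved.

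Sema7a, which is anchored to the membrane by a lipid and acts through Plxnc1 and integrins, had far more reads than the class 3 genes. Its log2 values were 7.53, 6.68 and 8.22 in vehicle and 5.33, 6.14 and 6.53 in Nrg-1β1. The highest Nrg-1β1 value lay just below that of the shallow vehicle library 2. The difference was -1.48 ± 0.40 (SE, limma adjusted p = 0.0756), and -0.69 and -2.22 with vehicle library 2 or 3 alone. On 49 Nrg-1β1 reads the pooled vehicle level was 3.46 times higher (2.61 to 4.68), and that of vehicle library 2 was 1.45 times (0.898 to 2.31). Its receptor gene Plxnc1 differed by 0.19 ± 0.39 with overlapping groups.

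The transmembrane semaphorins were closer to 0 than Sema7a. Sema6a, a ligand of A-type plexins, was at 6.03, 6.29 and 6.52 in vehicle and 4.90, 5.11 and 6.02 in Nrg-1β1, a difference of -0.93 ± 0.39 without passing (limma adjusted p = 0.298). Vehicle library 1 and Nrg-1β1 library 3 were almost equal, at 6.03 and 6.02. Sema4c differed by -0.84 ± 0.42 and Sema5b by 0.96 ± 0.50, each with groups that did not overlap. With vehicle library 2 or 3 alone Sema5b differed by 1.69 and 0.33. Sema6d, with 167 reads over the Nrg-1β1 libraries the most of any semaphorin, stood at 8.02, 7.88 and 8.45 in vehicle and 8.22, 8.25 and 7.31 in Nrg-1β1. Its groups overlapped, and the difference was -0.19 ± 0.31. Sema4d, which oligodendrocytes and immune cells express, differed by -0.36 ± 0.30, and Sema4g by 0.00 ± 0.36.

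**Figure D3:**
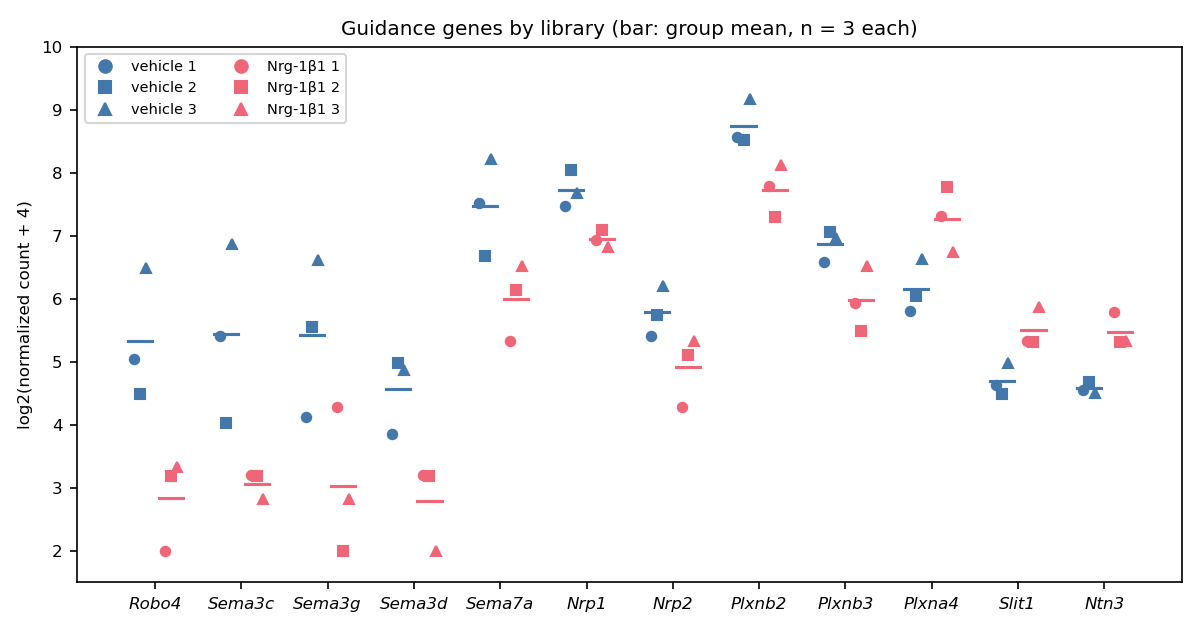
Log2(normalized count + 4) of 12 guidance genes in each library, blue for vehicle and red for Nrg-1β1, with the library number given by the shape and the group mean by a bar (n = 3 each). Robo4 and Sema3c lie at 4.03 or above in every vehicle library and at 3.33 or below in every Nrg-1β1 library, and Plxna4 shows the opposite order.

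Both neuropilins, the binding part of class 3 semaphorin receptors and co-receptors for vascular endothelial growth factor, had lower values in Nrg-1β1 with no overlap. Nrp1 was at 7.48, 8.04 and 7.68 in vehicle and 6.94, 7.10 and 6.83 in Nrg-1β1, a difference of -0.78 ± 0.29 (SE, limma adjusted p = 0.232). Nrp2 was at 5.41, 5.74 and 6.21 against 4.29, 5.11 and 5.34, a difference of -0.87 ± 0.43 (limma adjusted p = 0.403). Neither passed. For Nrp1 the vehicle level was 1.59 times the Nrg-1β1 level over the pooled reads (1.29 to 2.00) and 2.19 times in vehicle library 2 alone (1.60 to 3). Nrp1 is abundant in endothelium and is also made by neurons and other cells.

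Plexins went in both directions. Plxnb2, a receptor used by progenitors and microglia among other cells, was at 8.57, 8.52 and 9.17 in vehicle and at 7.79, 7.30 and 8.12 in Nrg-1β1. All vehicle values lay above all Nrg-1β1 values, with a difference of -1.02 ± 0.30 (SE, limma adjusted p = 0.109). On 162 Nrg-1β1 reads its pooled vehicle level was 2.10 times higher (1.80 to 2.47), and vehicle library 2 alone gave 1.62 times (1.26 to 2.06). Plxnb3, which oligodendrocyte lineage cells express, was at 6.58, 7.06 and 6.96 against 5.93, 5.49 and 6.53. It differed by -0.89 ± 0.35 (limma adjusted p = 0.263), and vehicle library 2 alone gave a ratio of 1.94 (1.25 to 3).

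Plxna4, a partner of neuropilins in class 3 signalling and a receptor for class 6 semaphorins, was the plexin with the most positive difference. Its values were 5.81, 6.04 and 6.64 in vehicle and 7.31, 7.77 and 6.75 in Nrg-1β1, so Nrg-1β1 library 3 lay just above vehicle library 3. The difference was 1.11 ± 0.35 (SE, limma adjusted p = 0.134). The Nrg-1β1 level was 2.00 times the vehicle level over pooled reads (1.63 to 2.43) and 2.39 times that of vehicle library 2 alone (1.47 to 4.07). The antisense entry Plxna4os1 had 1 read in the Nrg-1β1 libraries and 166 in the far deeper vehicle libraries, with overlapping groups. Its pooled vehicle level was 3.57 times the Nrg-1β1 level (0.633 to 142), an interval that includes equality, so no difference was detectable. Plxnb1 was at 8.71, 9.32 and 9.51 against 9.69, 9.44 and 9.77, with overlapping groups and a difference of 0.45 ± 0.29. Plxna1 (-0.44 ± 0.31), Plxnd1 (-0.42 ± 0.33), Plxna2 (0.13 ± 0.42) and Plxna3 (-0.09 ± 0.43) overlapped between the groups too.

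Robo4, the Robo of vascular endothelium, had log2 values of 5.04, 4.49 and 6.49 in vehicle and 2.00, 3.19 and 3.33 in Nrg-1β1. The groups did not overlap, with 479, 6 and 1423 reads against 0, 1 and 2. The nearest values, 4.49 in vehicle library 2 and 3.33 in Nrg-1β1 library 3, rest on 6 and 2 reads. The difference of -2.50 ± 0.60 was the most negative of the 70 (SE, limma adjusted p = 0.0512). The pooled vehicle level was 13.7 times the Nrg-1β1 level (4.68 to 66.4), and that of vehicle library 2 alone was 4.44 times (0.947 to 27.4), an interval that includes equality. The endothelial markers given above were lower in the same libraries, and their part in the values of Robo4, Sema3c, Sema3g and Nrp1 was not tested.

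The promoters of Robo4 and Sema3c are shown because these genes had the smallest adjusted p-values, both with lower values in Nrg-1β1. They are RefSeq sequences of GRCm38.p6, from 250 bases before to 50 bases after the transcription start, on the plus strand, with each CpG in capitals. Robo4 lies at chr9:37401722-37402021 and Sema3c at chr5:17574566-17574865.
Robo4: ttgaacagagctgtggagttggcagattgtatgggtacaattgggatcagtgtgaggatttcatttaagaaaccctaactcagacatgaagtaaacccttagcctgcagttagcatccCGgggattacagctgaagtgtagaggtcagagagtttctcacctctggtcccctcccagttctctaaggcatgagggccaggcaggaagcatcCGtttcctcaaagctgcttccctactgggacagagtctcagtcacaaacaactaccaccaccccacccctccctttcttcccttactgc
Sema3c: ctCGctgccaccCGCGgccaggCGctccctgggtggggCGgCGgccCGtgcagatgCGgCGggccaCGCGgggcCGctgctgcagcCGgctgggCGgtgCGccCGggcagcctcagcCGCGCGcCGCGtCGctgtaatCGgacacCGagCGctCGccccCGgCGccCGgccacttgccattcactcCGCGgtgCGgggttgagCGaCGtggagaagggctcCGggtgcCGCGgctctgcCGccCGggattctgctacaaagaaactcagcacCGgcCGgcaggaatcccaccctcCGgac
The dinucleotide CG, which reads the same on both strands, occurs 2 times in the Robo4 sequence and 42 times in that of Sema3c. Sema3g and Sema7a held 8 and 23. Of 32851 promoters of this length in the table, 94.6% hold a CG, with a median of 7 per promoter. At most 2 were found in 23.3% of them and at least 42 in 3.03%. The 4 genes with the smallest p thus span most of the range of promoter CpG content. Promoters were listed for 59 of the 70 genes, some with more than 1 start. The median over their 75 promoters was 19.

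The other Robos act on axons and migrating neurons, with Robo1 and Robo2 as receptors for Slit. Robo1 was at 5.24, 5.74 and 5.92 in vehicle and 6.25, 6.03 and 5.63 in Nrg-1β1, with a difference of 0.34 ± 0.37. Robo2 differed by -0.29 ± 0.45 and Robo3, which mammals use in commissural axons, by 0.75 ± 0.60, on 6 Nrg-1β1 reads. All 3 overlapped between the groups. Among their ligands, Slit1 was at 4.63, 4.49 and 4.99 against 5.33, 5.31 and 5.88, with no overlap and a difference of 0.80 ± 0.43 (SE, limma adjusted p = 0.453). Slit2 was at 4.76, 5.12 and 6.58 against 5.33, 4.27 and 4.47, a difference of -0.80 ± 0.51 that rested on the high value of vehicle library 3. Without that library it was -0.25. Slit3 differed by -0.40 ± 0.58.

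None of the netrins and their receptors passed the test, and Ntn3 had the largest difference among them. Ntn3 was at 4.55, 4.68 and 4.51 in vehicle and 5.80, 5.31 and 5.34 in Nrg-1β1, with no overlap and a difference of 0.90 ± 0.43 (SE, limma adjusted p = 0.375). Ntn1 was at 5.32, 6.5 and 6.36 against 6.67, 5.49 and 6.43, and its difference of 0.14 ± 0.41 was within the spread of each group. Ntn4, a netrin of basement membranes, differed by 0.25 ± 0.55. Ntn5 had 102 reads in vehicle and 0 in Nrg-1β1. Its pooled vehicle level of 3.06 normalized counts was below the 4.18 that 3 reads would give over the Nrg-1β1 libraries, so no difference was detectable.

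Of the receptors for netrins, Unc5b had the most reads. It was at 7.22, 8.19 and 7.53 in vehicle and 7.49, 7.67 and 7.49 in Nrg-1β1. The Nrg-1β1 values all lay inside the vehicle range, and the difference was -0.10 ± 0.30. Unc5a, Unc5c and Unc5d differed by -0.28 ± 0.36, -0.44 ± 0.50 and 0.40 ± 0.55. Dcc, on 1, 6 and 2 Nrg-1β1 reads, had a difference of -0.07 ± 0.58. The groups overlapped for all 5 receptors.

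Ephb1, with 139 reads over the Nrg-1β1 libraries the most of any Eph receptor, was at 7.68, 7.39 and 7.47 in vehicle and 7.40, 7.51 and 7.80 in Nrg-1β1. The groups overlapped, with a difference of 0.06 ± 0.28 and a pooled ratio of Nrg-1β1 to vehicle of 1.04 (0.869 to 1.22). Its ligand gene Efnb3 was at 8.41, 9.05 and 8.34 against 8.49, 8.56 and 8.45. The difference was -0.10 ± 0.28 and the pooled ratio 1.08 (0.949 to 1.22). Vehicle library 2 stood above the other 5 libraries, and set against it alone the vehicle level was 1.47 times that in Nrg-1β1 (1.21 to 1.80).

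Across the 14 Eph receptors the median difference was -0.01, and across the 8 ephrins -0.07. Of the EphA receptors, Epha8 had the most positive difference of all guidance genes, 1.35 ± 0.55 (SE, limma adjusted p = 0.275). It was at 2.54, 2.83 and 2.64 in vehicle and 4.90, 3.83 and 3.33 in Nrg-1β1, where 5, 2 and 2 reads were found. Epha7 was at 3.59, 3.35 and 4.43 against 3.20, 3.19 and 2.82, each Nrg-1β1 value resting on 1 read, with a difference of -0.72 ± 0.53, and of -0.28 and -1.37 with vehicle library 2 or 3 alone. Epha2 differed by -0.77 ± 0.58, and Epha4, which binds ephrins of both classes, by -0.36 ± 0.46, both with overlap.

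Among the EphB receptors, Ephb4, the receptor that marks veins, differed by -0.56 ± 0.43, by -0.23 with vehicle library 2 alone and by -1.27 with vehicle library 3 alone. Its partner Efnb2, the ligand that marks arteries, differed by -0.31 ± 0.51, at 4.43, 4.28 and 5.41 against 4.29, 4.88 and 4.01. Both overlapped between the groups, and for both the highest value was that of vehicle library 3. Ephb3 differed by 0.50 ± 0.40 and Ephb6 by -0.02 ± 0.37. In the lipid-anchored ephrins of class A, Efna1 differed by -0.91 ± 0.61 on 3 Nrg-1β1 reads, and by 0.06 and -1.77 with vehicle library 2 or 3 alone. Efna2 was at 4.38, 5.97 and 4.24 against 5.80, 4.88 and 5.95, a difference of 0.68 ± 0.50. Here the shallow vehicle library 2 held the highest value, and with it as the only vehicle library the difference was -0.43. No ephrin had groups that did not overlap.

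With vehicle library 2 as the only vehicle library, the differences of the 70 genes were negative in 35, positive in 34 and 0 in 1, with a median of 0.00 beside 0.07 over all genes. Robo4 then differed by -1.65, Sema3c by -0.96, Sema3g by -2.53, Sema3d by -2.20, Plxnb2 by -0.79, Nrp1 by -1.09 and Plxna4 by 1.24. With vehicle library 3 alone, 47 were negative, the median was -0.39 beside 0.03 over all genes, and Robo4 and Sema3c differed by -3.65 and -3.82. Beyond this, neither depth nor the Xist signal can be told apart from the group, since both deep libraries are vehicle and Xist was high in vehicle alone.

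**Figure D4:**
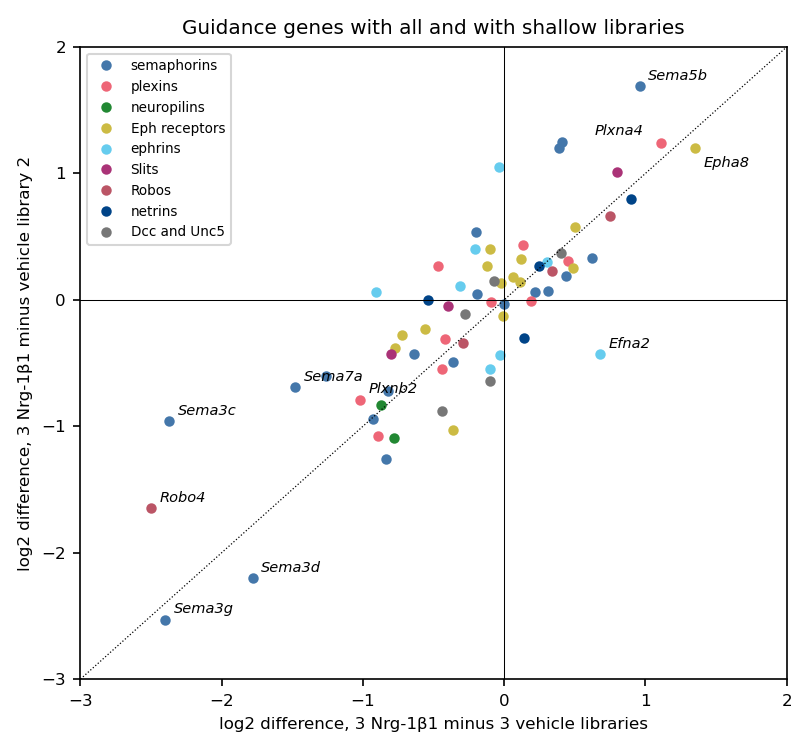
Difference of each guidance gene (negative: lower in Nrg-1β1), in log2(normalized count + 4), with all 3 vehicle libraries (x axis) and with vehicle library 2 alone (y axis). Each point is a gene coloured by family, and the dotted line marks equality. Robo4 and Sema3c move from -2.50 and -2.37 to -1.65 and -0.96, and Efna2 changes sign from 0.68 to -0.43.

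The partners and cytoplasmic effectors of these receptors were taken as a list of 71 genes. Of these, 1 fell, 0 rose and 70 did not pass (limma, adjusted p of 0.05, beside 1.06% of all genes), and 12 (16.9%, beside 13.0% of all genes) had an unadjusted p under 0.05. The differences were negative in 24 (33.8%, beside 47.8%) and positive in 47, with a median of 0.19 beside 0.03. The gene that fell was Srgap2, which encodes an intracellular partner of Robo receptors that shapes spines and neuronal migration. It was at 7.40, 7.70 and 7.94 in vehicle and 5.80, 6.42 and 6.62 in Nrg-1β1, with no overlap and a difference of -1.40 ± 0.32 (SE, limma adjusted p = 0.0412). The pooled vehicle level was 2.56 times higher (1.97 to 3.39), and that of vehicle library 2 alone 2.57 times (1.77 to 3.73). The call was lost when any library was left out and in 16 of 18 other settings in all, with adjusted p-values from 0.0104 to 0.607 (limma). Markers of several cell types, microglia among them, were lower in the same libraries, and their part in the value of Srgap2 was not tested.

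Its relative Srgap1 went the other way without passing, at 5.55, 5.97 and 6.07 in vehicle and 7.79, 7.04 and 6.62 in Nrg-1β1. The difference was 1.28 ± 0.36 (SE, limma adjusted p = 0.085). Rgma, a repulsive cue that binds neogenin, was at 8.06, 9.16 and 8.01 against 10.07, 9.65 and 9.39, a difference of 1.29 ± 0.33 (limma adjusted p = 0.0598). Its Nrg-1β1 level was 3.1 times the vehicle level over pooled reads (2.85 to 3.37). Against vehicle library 2 alone it was 1.43 times (1.21 to 1.7). Farp1, which acts in dendrites and synapses, differed by 0.99 ± 0.30 (limma adjusted p = 0.115). The groups did not overlap for any of these 3 genes. Over the list of 71 they did not overlap for 14 (19.7%, beside 17.7% of all genes). Of these, 5 had the lower values in Nrg-1β1 (7.04%, beside 10.4%) and 9 the higher ones (12.7%, beside 7.37%).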

How the data were processed

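RNA-seq values of 6 libraries, 3 per group, were analysed. Per the submitters' processing notes, Trimmomatic and Bowtie2 were used. The genome build, the read counter, strand and scaling, and any versions, were not given in the sources used here. The authors deposited log2 values. Their lowest value is 2 in each library, and after 4 was subtracted from the unlogged values they were whole multiples of 1 step for each library (100% of values lay within 0.02 read), from 0.0605 to 5.17 normalized counts per read. They were read as log2(normalized count + 4), and the reads were recovered from them. This reading comes from the values.

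The comparison was limma 3.58.1 (R 4.3.3) with an intensity trend on the deposited log2 values, with group alone in the model, fitted on 20323 genes and adjusted over them by Benjamini-Hochberg, and it was tested on simulated data. The replicates were taken to be animals, not technical repeats, and this was not tested. Counting intervals are 95% exact Clopper-Pearson on pooled reads, floors are 3 reads, and both cover counting error only, since reads carry no molecular identifiers. Exon lengths are unions of GENCODE M21 exons by Ensembl ID (70 of 70 matched), used as lengths only, since the authors' annotation is not given. Named genes are the 3 with the smallest p in each family and the one with the most Nrg-1β1 reads, 32 in all, plus 4 of the partner list. Other genes were named for their level or after their values were seen. The members and lists were chosen with earlier results of these data known. Alternatives covered scaling, the added constant, filters, limma-voom, the trend, left-out libraries, a replicate block and depth.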

Additional observations from a re-analysis of the deposited data

How the results depend on the processing

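The count of 0 changed guidance genes held in 16 of 18 alternatives. With library medians centred, which moved the median difference over all genes by 0.21 to 0.25, there were 4, with 3 lower (Robo4, Sema3c and Sema3g) and 1 higher (Plxna4), beside 2.46% of all genes. Their median was then 0.11, and -0.39 with vehicle library 3 alone, an alternative chosen after seeing the data. With the replicate number as a block there were 4, all lower (Robo4, Sema3c, Sema3g and Sema7a). The labels do not say that a number is shared, and the deviations of same-numbered libraries correlated at -0.126, -0.002 and -0.181. These correlations cannot show or exclude a pairing, since many genes rest on few reads, so it stays unknown. The block gave 627 changed genes among all tested, 342 lower and 285 higher, and 3 in the partner list, with 2 higher (Rgma and Srgap1).

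The adjusted p of Robo4 ranged from 0.00424 to 0.815 over its alternatives. Over all genes the count of 216 was 499 with library medians centred (335 higher), 129 with an added constant of 1 (80 lower, 49 higher), 89 for genes with 10 reads in at least 3 libraries (66 and 23), 65 with quantile normalization (53 and 12), 49 at a mean normalized count of at least 50 (38 and 11), 21 without the trend (19 and 2), 1 with limma-voom (0 and 1), and 0 with depth class as a term, with shallow libraries only or with vehicle library 3 alone. Leaving out 1 library gave 0 to 56 (0 to 41 lower, 0 to 15 higher): 0 without any Nrg-1β1 library or vehicle library 2, 56 without vehicle library 1 and 4 without vehicle library 3.

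The partner list had 0 changed genes with each library left out and in every other alternative except an added constant of 16 (1, Srgap2), the block, and library medians centred, where 3 were higher (Rgma, Farp1 and Srgap1) and 0 lower. Of the 36 genes named by rule, 26 kept the sign of their difference. Signs turned with library medians centred for Sema6d (0.03), Efnb3 (0.12) and Unc5b (0.12), and with quantile normalization for Ephb1 (-0.04). With shallow libraries only and with depth class as a term they turned for Sema6d (0.05), Efna1 (0.06), Efna2 (-0.43), Efnb2 (0.11) and Ntn1 (-0.30), and with vehicle library 3 alone for Efnb3 (0.16), Ntn1 (-0.16), Ntn4 (-0.63) and Unc5b (0.02). Leaving out 1 library gave -0.35 to 0.12 for Sema6d, -0.05 to 0.15 for Ephb1, -0.56 to 0.04 for Efnb2, -0.23 to 0.12 for Efnb3, -0.23 to 0.49 for Ntn1, -0.18 to 0.70 for Ntn4, -0.31 to 0.17 for Unc5b and -0.05 to 0.66 for Unc5d. The causes were not tested. At the depth of the Nrg-1β1 libraries, genes under about 50 normalized counts rest on few reads.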

Other observations

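Pairs of genes were also compared within each library, as differences of log2(normalized count + 4). The added 4 keeps the library scale from cancelling in full, most of all for low genes such as Slit1 and Slit2. The pairs were chosen after their values were seen, so they are given with no test. Srgap1 minus Srgap2 was -1.85, -1.73 and -1.87 in vehicle libraries 1 to 3 and 1.99, 0.62 and 0.00 in Nrg-1β1 libraries 1 to 3, so the order of these genes was fixed in vehicle and equal or opposite in Nrg-1β1. Plxna4 minus Plxnb2 was -2.76, -2.49 and -2.53 in vehicle against -0.48, 0.47 and -1.37 in Nrg-1β1. Slit1 minus Slit2 was -0.13, -0.63 and -1.59 against 0.00, 1.04 and 1.40. Nrp1 minus Nrp2 was 2.06, 2.30 and 1.48 against 2.66, 1.98 and 1.49, with groups that overlapped.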
